A study of Canis lupus familiaris with 9 samples.

Results

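Heat shock proteins and their co-chaperones were examined in skeletal muscle from 9 beagles, intact females aged 4 years, at the end of a 24-week feeding trial. The 68 genes were picked by symbol from the 15115 genes with a symbol of their own on the canine array. They form the HSP90, HSP70 (HSPA and HSPH1), chaperonin (HSPD1 and HSPE1), small heat shock (HSPB and CRYAB), DNAJA, DNAJB, DNAJC and BAG families. The set was chosen with earlier results of these data known. Each gene was read from 1 probe set, the one with the highest mean over the 9 arrays. The ad libitum group (5 dogs, animals 2, 5, 6, 7 and 8) ate without restriction, and the control group (4 dogs, animals 1, 3, 4 and 9) was fed to hold baseline body weight. Assignment was random, every dog received the same commercial performance diet, and muscle was sampled after a night without food. The labels name neither the muscle nor the animals' weights, and each dog gave 1 array of bulk tissue.

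Molecular chaperones bind proteins that are unfolded or partly folded and keep them from clumping. In the HSP70 cycle a J-domain protein (the DNAJ families) delivers the client and triggers ATP hydrolysis, and a nucleotide exchange factor such as a BAG or HSPH1 protein lets the client go, often to HSP90. Small heat shock proteins need no ATP and hold clients until HSP70 takes over. Muscle is rich in them, since its filaments are strained at every contraction, and BAG3 with HSPB8 and HSPA8 clears damaged filamin from the Z-disc, the border between sarcomeres. Many of these genes are switched on by heat or protein damage through the transcription factor HSF1.

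Values are GCRMA values taken as log2, so a difference of 1 is a doubling, and all differences are ad libitum minus control. The figure after each mean is its SD, over n = 5 ad libitum and n = 4 control dogs. Across arrays the 7 tested genes of the muscle fibre list (CKM, the listed creatine kinase, is not analysed here) averaged 15.56 to 15.68 in ad libitum dogs and 15.61 to 15.69 in control dogs, near the top of the scale, whose highest value was 16.6. Of the 43035 probe sets, 18394 were above 4 on at least 4 arrays and were tested, and array pairs correlated at r = 0.976 to 0.994. After limma, adjusting p by Benjamini-Hochberg for all 18394, 0 (0%) passed an adjusted p of 0.05, while 1088 (5.91%) had an unadjusted p under 0.05. No chaperone gene could therefore be called changed, and the adjusted p of every chaperone gene was 0.796 or higher.

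Of the 68 chaperone genes, 53 were tested, and each of these lay above 4 on all 9 arrays, so the filter took no account of the group. The other 15 had means of at most 3.61. Among them were the J-domain genes DNAJB3, DNAJB7, DNAJB8 and DNAJB13, the clathrin-uncoating factor DNAJC6, the HSP70 relatives HSPA12A, HSPA12B, HSPA13 and HSPA4L, and the small heat shock gene HSPB9. DNAJC5B, DNAJC17, DNAJC22, DNAJC27 and DNAJC30 completed this group. At such values signal and background are hard to separate on this array, so these genes are named without a difference.

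The tested chaperone genes were centred near no difference. In ad libitum muscle 32 had the higher mean and 21 the lower, with a median log2 difference of 0.046, against a median of -0.0021 over the 7534 genes tested by 1 probe set each, of which 49.6% had the higher mean. The genes that stood out by size were the small heat shock genes HSPB3 and HSPB7 and the endoplasmic reticulum chaperone HSPA5, each with a higher mean in ad libitum muscle and a difference above 0.5 (5.66% of the 53, and 10.5% of all genes differed by over 0.5 either way). They were also the 3 of 53 (5.66%) with an unadjusted limma p under 0.05, beside 6.23% of all 7534 genes. A share so near the background is no result about chaperones as a group. All 3 were higher in ad libitum dogs, where 4.1% of all genes had an unadjusted p under 0.05 with a higher mean and 2.12% with a lower one. The 95% interval of the difference lay within 1 either way for 45 of the 53 genes and within 0.5 either way for 20.

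**Figure D1:**
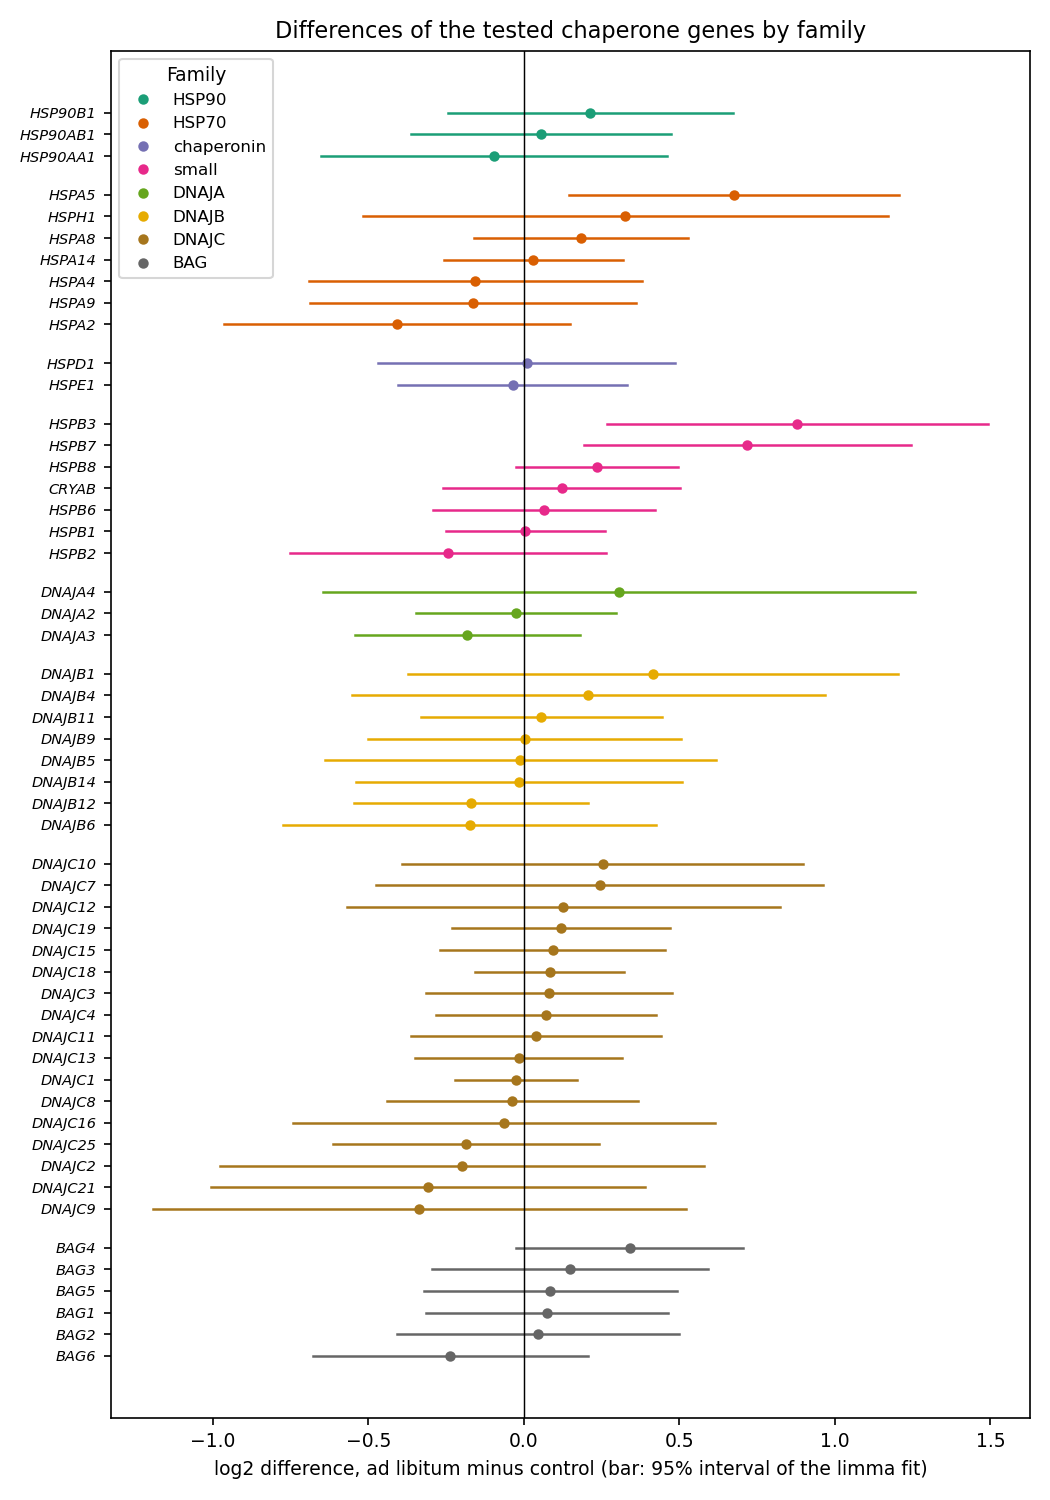
Log2 difference (ad libitum minus control, horizontal axis) of each of the 53 tested chaperone genes, grouped by family, with points at the limma estimate and bars for its 95% interval. HSPB3, HSPB7 and HSPA5 are the 3 genes whose bars stay clear of 0, and the other 50 bars cross it.

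Among the small heat shock genes, 6 of the 7 tested had a higher mean in ad libitum muscle, with a median log2 difference of 0.12, which was 0.040 without ad libitum dog 6 and 0.21 without control dog 3. HSPB1 is counted among the 6 by a margin of 0.0052, which was -0.062 when its probe sets were averaged. HSPB3, a muscle-restricted member whose protein pairs with HSPB2, had values of 9.44, 9.24, 9.70, 8.68 and 8.72 in ad libitum dogs 2, 5, 6, 7 and 8, against 7.91, 8.72, 8.59 and 7.88 in control dogs 1, 3, 4 and 9. Ad libitum dogs 2, 5 and 6 lay above every control dog, and dogs 7 and 8 lay level with control dogs 3 and 4. The mean of the 5 ad libitum dogs was 9.16 ± 0.45 and that of the 4 controls 8.28 ± 0.44, so the log2 difference was 0.88 (SE 0.27, 95% interval 0.27 to 1.49, a 1.84-fold ratio). The limma p was 0.00981 before and 0.796 after adjustment. A second HSPB3 probe set differed by 0.93 (SE 0.38).

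HSPB7, the cardiovascular small heat shock protein, which binds filamin C, had values of 13.19, 12.99, 13.27, 13.58 and 12.95 in ad libitum dogs 2, 5, 6, 7 and 8, against 12.17, 13.21, 12.30 and 12.24 in control dogs 1, 3, 4 and 9. All 5 ad libitum dogs lay above 3 of the control dogs, and control dog 3 lay among the ad libitum dogs. The mean of the 5 ad libitum dogs was 13.20 ± 0.25 and that of the 4 controls 12.48 ± 0.49, so the log2 difference was 0.72 (SE 0.23, 95% interval 0.19 to 1.24, a 1.65-fold ratio). The limma p was 0.0126 before and 0.796 after adjustment. The 2 other HSPB7 probe sets differed by 0.81 (SE 0.43) and 0.56 (SE 0.33), and the mean over all its probe sets had an unadjusted p above 0.05.

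HSPB8, the partner of BAG3 in Z-disc clearance, had values of 13.87, 13.99, 14.10, 14.12 and 13.72 in ad libitum dogs 2, 5, 6, 7 and 8, against 13.61, 13.80, 13.73 and 13.76 in control dogs 1, 3, 4 and 9. Ad libitum dogs 2, 5, 6 and 7 lay above every control dog, and dog 8 lay among the controls. Its log2 difference was 0.24 (SE 0.12, limma adjusted p = 0.796), with 0.33 and 0.29 in its other probe sets.

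The remaining small heat shock genes differed by less than the spread between dogs. HSPB1, a stabiliser of actin and the best known of the family, averaged 14.66 ± 0.15 in ad libitum and 14.65 ± 0.11 in control dogs, and the interval of its difference ran from -0.25 to 0.26. CRYAB, the alpha B-crystallin that guards desmin, differed by 0.12 (SE 0.17), and HSPB6, a phosphoprotein of muscle relaxation, by 0.064 (SE 0.16). HSPB2 was the only tested member of its family with a lower mean, at 10.41 ± 0.44 in ad libitum and 10.66 ± 0.21 in control dogs, differing by -0.24 (SE 0.23). HSPB2 and HSPB3, whose proteins form a complex, thus had means on opposite sides, although HSPB2 did not pass any threshold and the gap between the pair was not tested. HSPB2 and CRYAB lie next to each other in the gene table of the dog assembly, and their differences, -0.24 and 0.12, were both within the spread between dogs.

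**Figure D2:**
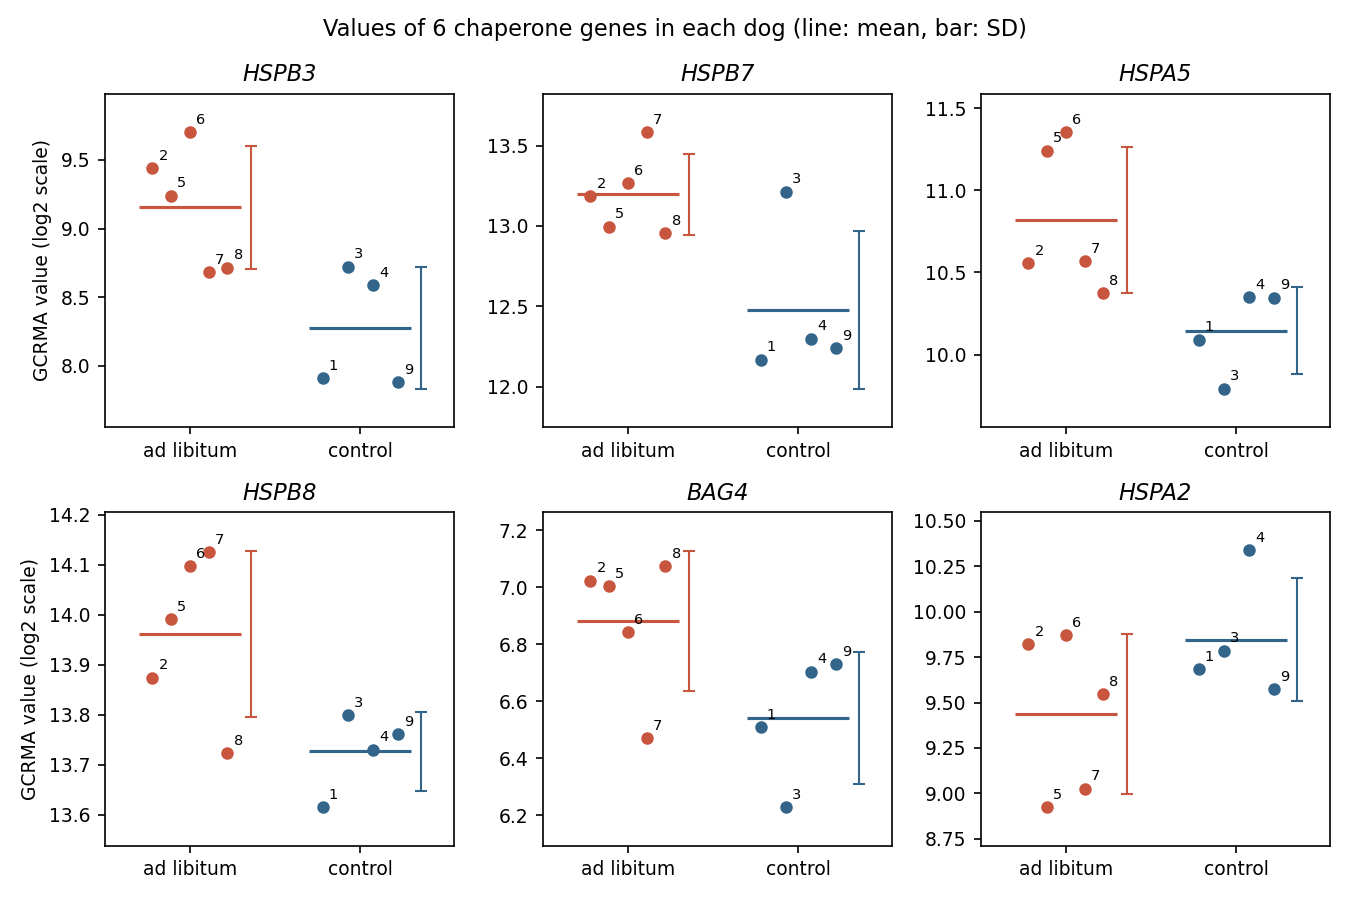
GCRMA values on the log2 scale (vertical axes, which do not start at 0) of HSPB3, HSPB7, HSPA5, HSPB8, BAG4 and HSPA2 in each dog, ad libitum left of control, with animal numbers, group means as lines and SDs as bars. In the HSPA5 panel the lowest ad libitum dog, at 10.38, sits just above the highest control dogs, at 10.35, and in the HSPB7 panel control dog 3 sits at the level of the ad libitum dogs.

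Fibre type markers were read beside these genes. In bulk tissue, more cells of a type and more RNA per cell cannot be told apart. Of the 9 slow fibre markers tested, 8 were higher on average in ad libitum dogs, with a median difference of 0.083 and a list level of 14.19 to 15.03 in ad libitum and 14.34 to 14.89 in control dogs. All 10 fast fibre markers tested had lower means, 0 with an unadjusted p under 0.05, with a median of -0.17 and a list level of 13.75 to 15.19 in ad libitum and 14.77 to 15.20 in control dogs. In the order of the dogs, HSPB3 and the slow fibre level were both highest in ad libitum dog 6, but HSPB7 was highest in ad libitum dog 7, which had the lowest slow fibre level. Whether fibre make-up has a part in the small heat shock values was not tested.

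In the HSP70 family 4 of 7 tested genes had a higher mean in ad libitum muscle, with a median difference of 0.031. HSPA5, known as BiP, is the HSP70 of the endoplasmic reticulum and a marker of secretory load. Its values were 10.56, 11.24, 11.36, 10.57 and 10.38 in ad libitum dogs 2, 5, 6, 7 and 8, against 10.09, 9.79, 10.35 and 10.35 in control dogs 1, 3, 4 and 9. All 5 ad libitum dogs lay above all 4 control dogs, with a narrow gap between ad libitum dog 8 and control dogs 4 and 9. HSPA5 was the 1 chaperone gene whose groups did not overlap, a pattern found with ad libitum above in 0.77% of all genes, and with either group above in 1.46%. The mean of the 5 ad libitum dogs was 10.82 ± 0.45 and that of the 4 controls 10.14 ± 0.26, so the log2 difference was 0.67 (SE 0.24, 95% interval 0.14 to 1.21, a 1.60-fold ratio). The limma p was 0.018 before and 0.796 after adjustment, the second HSPA5 probe set differed by 0.43 (SE 0.23), and the groups overlapped when both were averaged.

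Markers of connective tissue, immune cells and fat were read beside HSPA5. Each of the 12 fibroblast and matrix markers tested was higher on average in the ad libitum group, 8 of them with an unadjusted limma p under 0.05, and their median difference was 1.99, with a list level of 8.03 to 12.12 in ad libitum and 7.80 to 9.03 in control dogs. Ad libitum dogs 5 and 6, the highest for HSPA5, were also the highest for these markers, at 12.12 and 10.75. Ad libitum dog 7, with HSPA5 above every control dog, had a marker level of 8.03. That was below control dogs 1, 4 and 9, at 9.03, 8.71 and 8.51. Ad libitum dog 8, the lowest ad libitum dog for HSPA5, had a marker level of 10.21. All 7 macrophage markers and all 14 adipocyte markers tested had higher means too, with median differences of 0.98 and 0.73 and an unadjusted p under 0.05 for 3 and 4 of them. Of the 12 listed macrophage markers, CD68, CSF1R, TYROBP, AIF1 and MARCO were not above the filter. The macrophage level ran from 5.08 to 8.09 in ad libitum and from 4.97 to 5.63 in control dogs, and the adipocyte level from 7.74 to 9.76 in ad libitum and from 7.01 to 8.73 in control dogs. Of the 9 endothelial markers tested, 4 had a higher and 5 a lower mean. The part of these cells in the HSPA5 value was not tested.

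Other chaperone genes of the endoplasmic reticulum had smaller differences than HSPA5. Of the 10 tested genes of this compartment, HSPA5 included, 7 had a higher mean, with a median of 0.068. HSP90B1, the HSP90 of that compartment, averaged 9.78 ± 0.31 in ad libitum and 9.57 ± 0.32 in control dogs, differing by 0.21 (SE 0.20). DNAJB9 and DNAJB11, J-domain partners of HSPA5, differed by 0.0035 (SE 0.22) and 0.056 (SE 0.17), and DNAJC3 by 0.080 (SE 0.18). These 3 partners were chosen for naming after their values were seen, and so was DNAJC10, also of this compartment, at 0.25 (SE 0.29). DNAJC25 had the lowest difference of the 10, -0.19 (SE 0.19), and -0.021 without ad libitum dog 2, which at 6.08 lay below all other dogs.

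The remaining HSP70 genes were spread around no difference. HSPA8, the constitutive HSP70 that runs most everyday folding, averaged 14.65 ± 0.23 in ad libitum and 14.47 ± 0.20 in control dogs, differing by 0.18 (SE 0.15). HSPH1, an exchange factor for HSP70, had values from 8.32 to 10.18 in ad libitum and from 8.19 to 9.43 in control dogs, and its difference of 0.33 (SE 0.37) was 0.056 without ad libitum dog 6. The 2 other HSPH1 probe sets differed by 0.017 and 0.0038. HSPA2, best known from the testis, had the lowest difference of all 53 genes, with 9.82, 8.92, 9.87, 9.03 and 9.54 in ad libitum dogs 2, 5, 6, 7 and 8, against 9.68, 9.79, 10.34 and 9.58 in control dogs 1, 3, 4 and 9. Ad libitum dogs 2 and 6 lay above 3 of the control dogs, so the groups overlapped. The difference was -0.41 (SE 0.25, limma adjusted p = 0.801). HSPA4, of the HSPH1 branch, and HSPA14, a ribosome-bound form, were chosen after their values were seen, and differed by -0.16 (SE 0.24) and 0.031 (SE 0.13). The strongly heat-inducible gene that the platform lists under the plain symbol HSP70 falls outside the symbols chosen here, and was picked out after its values were seen. It ran from 9.20 to 11.26 in ad libitum and from 9.51 to 10.37 in control dogs, and its means differed by -0.038 (SE 0.38).

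Cytosolic HSP90 and the mitochondrial chaperones showed no difference beyond the spread between dogs. HSP90AA1, the inducible form that matures kinases and steroid receptors, averaged 11.50 ± 0.51 in ad libitum and 11.60 ± 0.17 in control dogs, differing by -0.097 (SE 0.25). HSP90AB1, the constitutive form, differed by 0.055 (SE 0.19). Neither sign is secure, since HSP90AA1 differed by 0.062 without ad libitum dog 2 and HSP90AB1 by -0.066 without ad libitum dog 6. Of the 8 mitochondrial genes tested, 5 had a higher mean, with a median of 0.025 and a range from -0.18 to 0.12. HSPD1 and HSPE1, the chaperonin and its lid, lie side by side in the dog gene table and differed by 0.0097 (SE 0.21) and -0.036 (SE 0.16). HSPA9, mortalin, the motor of protein import, differed by -0.16 (SE 0.23), and by 0.061 without control dog 4, whose value of 9.73 stood apart from 8.81 to 8.88 in the other controls. DNAJA3, its J-domain partner, differed by -0.18 (SE 0.16), and DNAJC19, of the import channel, by 0.12 (SE 0.16).

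J-domain genes made up 28 of the tested genes, 3 DNAJA, 8 DNAJB and 17 DNAJC, and none had an unadjusted p under 0.05. Their median differences were -0.025 for DNAJA, -0.0039 for DNAJB and 0.039 for DNAJC, and that of DNAJB was 0.011 with each array centred on its median. DNAJB1, the classic HSP40 that HSF1 induces, averaged 7.82 ± 0.49 in ad libitum and 7.40 ± 0.69 in control dogs, differing by 0.42 (SE 0.35). It ranged from 0.17 without control dog 3 to 0.73 without control dog 1, and its other probe sets gave 0.43, 0.26 and -0.23. DNAJA4, an HSP40 abundant in striated muscle, differed by 0.31 (SE 0.42), and 4 of the 5 ad libitum animals exceeded the mean of the controls. Ad libitum dog 7, at 9.65, was the exception. The DNAJA4 difference fell to 0.13 when ad libitum dog 6 was omitted and rose to 0.68 when dog 7 was. Dog 7 was already seen to oppose the difference, so the larger value is a description only.

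The other J-domain genes named had smaller or less certain differences. DNAJB4 had a difference of 0.21 (SE 0.34), which was -0.032 with ad libitum dog 6 left out, and DNAJB5 differed by -0.011 (SE 0.28). DNAJB12, which acts at the endoplasmic reticulum membrane but was not counted in the endoplasmic reticulum list above, differed by -0.17 (SE 0.17). Among DNAJC genes the lowest were DNAJC9, a histone chaperone, at -0.34 (SE 0.38), and DNAJC21, a ribosome assembly factor, at -0.31 (SE 0.31). Both rested on ad libitum dog 2, with 5.40 for DNAJC9 and 6.79 for DNAJC21, and without it the differences were -0.053 and -0.033. DNAJC2, which sits on the ribosome, and DNAJC13, which acts in endosomes, were also lowest in ad libitum dog 2, with differences of -0.20 (SE 0.35) and -0.016 (SE 0.15). At the other end of the DNAJC family were DNAJC10, a reductase of the endoplasmic reticulum, at 0.25 (SE 0.29), and DNAJC7, an HSP70 and HSP90 adaptor, at 0.24 (SE 0.32). All 4 were picked out with their values known. The narrowest estimate was that of DNAJC1, also of the endoplasmic reticulum and also chosen in this way, at -0.025 (SE 0.088). Its values ran only from 5.48 to 5.61, the smallest range of the tested chaperone genes. The other tested probe set of DNAJC1 gave -0.19 (SE 0.11). DNAJB6, whose mutations cause a limb-girdle muscular dystrophy and which was chosen after its values were seen, differed by -0.17 (SE 0.27), but its other probe sets gave 0.30 and -0.40.

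BAG genes had higher means in ad libitum muscle for 5 of the 6 tested, with a median of 0.081. BAG4, the silencer of death domains, had values of 7.02, 7.00, 6.84, 6.47 and 7.07 in ad libitum dogs 2, 5, 6, 7 and 8, against 6.51, 6.23, 6.70 and 6.73 in control dogs 1, 3, 4 and 9. Ad libitum dogs 2, 5, 6 and 8 lay above all control dogs, and dog 7 lay below 3 of them. The difference was 0.34 (SE 0.16, limma adjusted p = 0.796). Omitting single dogs moved it between 0.24, with control dog 3 removed, and 0.44, with ad libitum dog 7 removed. Dog 7 was already seen to be the low ad libitum animal, so 0.44 is a description only. BAG3, the muscle co-chaperone that loads HSP70 clients onto autophagy, averaged 12.51 ± 0.32 in ad libitum and 12.36 ± 0.29 in control dogs, differing by 0.15 (SE 0.20). BAG6, which sorts stray membrane proteins, differed by -0.24 (SE 0.20) and by -0.044 without control dog 3. BAG1, BAG2 and BAG5, chosen after their values were seen, differed by 0.076 (SE 0.17), 0.046 (SE 0.20) and 0.085 (SE 0.18). Other probe sets of BAG5 gave 0.21, -0.011 and -0.38. The 5 genes of Z-disc clearance, BAG3, HSPB8, HSPA8, CRYAB and DNAJB6, had a median difference of 0.15, with 4 higher and 1 lower.

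The range over the 9 dogs, which includes any difference between the groups, had a median of 0.971 over the tested chaperone genes and of 0.956 over all tested genes. Values of 40 of the 53 chaperone genes (75.5%) had the larger SD in ad libitum dogs, compared with 60.3% of all genes. Ad libitum dog 6 had the highest value of the 9 dogs for 16 of the 53 chaperone genes (30.2%), against 6.58% of all genes. Ad libitum dog 2 had the lowest value for 18 of the 53 (34%), against 17.6% of all genes, and 9 of those 18 were DNAJC genes. Since the dogs were picked out by these values, the shares are a description only.

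**Figure D3:**
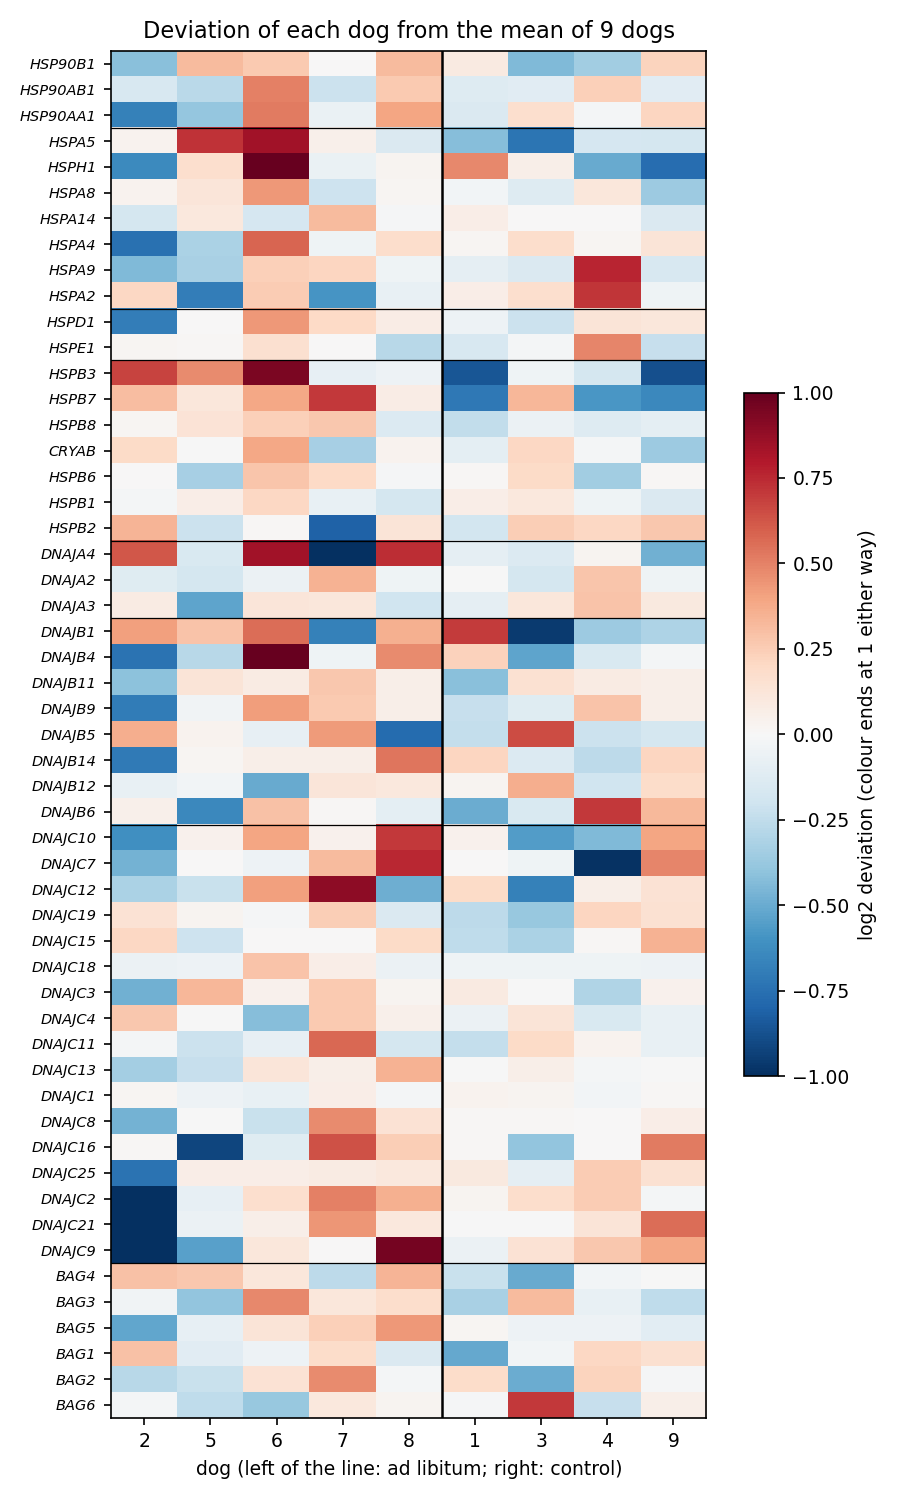
Deviation of each dog (columns, ad libitum left of the line, control right) from the mean of 9 dogs, on the log2 scale, for the 53 tested chaperone genes (rows, grouped by family), with colours ending at 1 either way. Ad libitum dog 6 has the highest value for 16 genes, and ad libitum dog 2 the lowest for 18, DNAJC2, DNAJC9 and DNAJC21 among them.

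Most, but not all, of the heat-inducible genes were highest in ad libitum dog 6. The 14 tested genes listed as inducible through HSF1 include HSPA8 and HSP90AB1, both called constitutive above. Of the 14, 11 had a higher mean in ad libitum muscle, with a median difference of 0.14, and 0 had an unadjusted p under 0.05. Dog 6 was the highest of all 9 dogs for 10 of the 14, with a median deviation of 0.46 from the mean of the dogs, while the other 8 dogs had medians between -0.20 and 0.057. Its HSPH1 value was 10.18, against at most 9.43 in any other dog, its DNAJB4 value 12.63 against at most 12.05, and its HSP90AB1 value 13.17 against at most 12.93. The rest of the list peaked elsewhere. DNAJB1 was 8.19 in dog 6 and 8.34 in control dog 1, its highest. DNAJB5 was highest in control dog 3, HSPB8 in ad libitum dog 7 and HSPE1 in control dog 4. Chaperone genes outside the list, HSPA5, HSPB3 and HSPB6 among them, were highest in dog 6 too. The gene listed as HSP70 stood at 11.26 in dog 6 and between 9.20 and 10.37 in the other dogs. Without dog 6 the median difference of the 14 genes was 0.024, a value chosen for report after the data were seen, and without any other 1 dog it lay between 0.070 and 0.18.

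**Figure D4:**
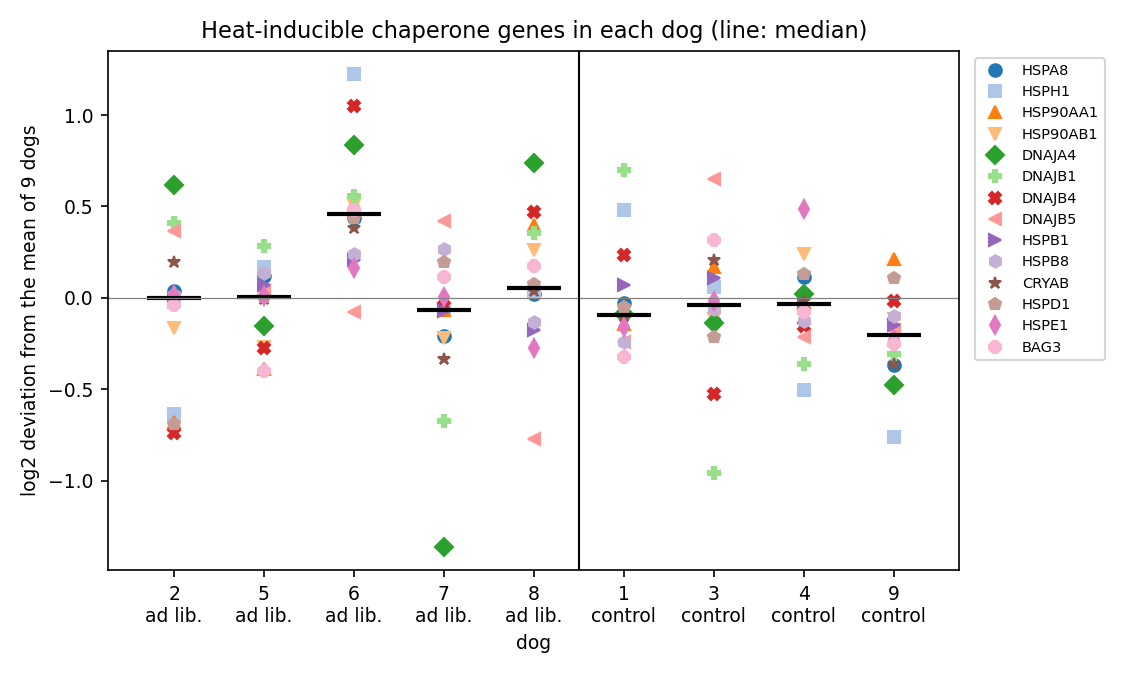
Log2 deviation from the mean of 9 dogs (vertical axis) for the 14 tested heat-inducible chaperone genes in each dog, ad libitum dogs left of the line and control dogs right of it, with the median of the 14 genes as a black line. The median stands at 0.46 in ad libitum dog 6 and between -0.20 and 0.057 in the other dogs.

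Immediate early genes, which respond within minutes to stress and to handling of tissue, were read beside these values. Of the 12 tested, 10 had a higher mean in ad libitum muscle, with a list level of 6.92 to 8.29 in ad libitum and 7.25 to 7.88 in control dogs. Dog 6, at 8.23, was level with ad libitum dogs 2 and 5, at 8.29 and 8.27. ATF3, a stress-responsive transcription factor chosen after its values were seen, stood at 9.04 in dog 6 and between 3.52 and 6.35 in the other dogs. In all dogs IER2 differed by 1.03 (SE 0.36) and DUSP1 by -0.80 (SE 0.30). MYC, also chosen after its values were seen, differed by -1.41 (SE 0.53), so members of the list differed in both directions. FOSB, JUNB, EGR1, EGR2, EGR3 and NR4A2 were not above the filter. RNA integrity, read as the 3' minus 5' value of a GAPDH control, was 2.21 ± 0.068 in ad libitum and 2.09 ± 0.11 in control dogs (two-sided exact permutation p = 0.0714). The other GAPDH control gave -0.25 ± 0.033 in ad libitum and -0.25 ± 0.021 in control dogs (exact permutation p = 0.937). The part of handling or RNA quality in the chaperone values was not tested.

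The regulators and partners of these chaperones showed differences of the same modest size. HSF1, the master factor of the heat shock response, averaged 10.82 ± 0.23 in ad libitum and 11.20 ± 0.34 in control dogs, differing by -0.39 (SE 0.18, limma adjusted p = 0.796). HSBP1, which binds HSF1 and restrains it, differed by 0.16 (SE 0.13). Of 28 tested co-chaperones outside the chosen families, 22 had a lower mean in ad libitum muscle, with a median of -0.090, and 1 had an unadjusted p under 0.05, UNC45B. UNC45B is the myosin-folding partner of HSP90 in striated muscle. Its values were 11.76, 11.45, 12.09, 11.82 and 12.13 in ad libitum dogs 2, 5, 6, 7 and 8, against 12.21, 12.37, 12.25 and 12.21 in control dogs 1, 3, 4 and 9. All 5 ad libitum dogs lay below all 4 control dogs, a pattern that 0.69% of all genes had. The difference was -0.41 (SE 0.15). The limma p was 0.0227 before and 0.796 after adjustment. TRAP1, the mitochondrial HSP90, differed by -0.25 (SE 0.15).

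The subunits of the cytosolic chaperonin TRiC, which folds actin and tubulin, and of prefoldin, which delivers them, had means on opposite sides. All 7 tested TRiC genes had a higher mean in ad libitum muscle, also after cyclic loess or median centring, from 0.011 to 0.20, led by CCT5 at 0.20 (SE 0.097). All 4 tested prefoldin genes had a lower mean, from -0.54 to -0.10, with VBP1 at -0.54 (SE 0.40) and PFDN2 at -0.18 (SE 0.13). No gene of either complex had an unadjusted p under 0.05. The TRiC list level ran from 11.16 to 11.53 in ad libitum and from 11.18 to 11.34 in control dogs. The prefoldin level ran from 9.49 to 9.83 in ad libitum and from 9.68 to 10.22 in control dogs, so both overlapped. Of 9 mitochondrial proteases, 6 had a lower mean, with OMA1 at -0.36 (SE 0.18) and HTRA2 at 0.12 (SE 0.15). Of 9 Z-disc clients and partners, 7 had a lower mean, among them SYNPO2, which takes part in BAG3-dependent autophagy, at -0.20 (SE 0.18), and DES, desmin, at -0.12 (SE 0.12).

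Other probe sets of the same gene mostly gave the same sign, but not always the same size. Of the 53 tested genes, 36 had further tested probe sets, 58 in all, and 46 of these had the same sign as the chosen one. For genes whose chosen probe set differed by more than 0.3 in either direction, 11 of 12 further probe sets kept the sign, the exception being 1 of DNAJB1. Sizes moved more than signs. With all probe sets of a gene averaged, the difference was 0.70 for HSPB7, 0.55 for HSPA5, 0.22 for DNAJB1 and 0.12 for HSPH1. HSP90AA1 had 1 further probe set with a measurable signal, which the platform assigns jointly to HSP90AA1 and the locus LOC607470, and it gave -0.0064 (SE 0.31). HSPE1 was read only from a probe set of the type that can bind related sequences, so its value is the less certain one of the chaperonin pair.

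**Figure D5:**
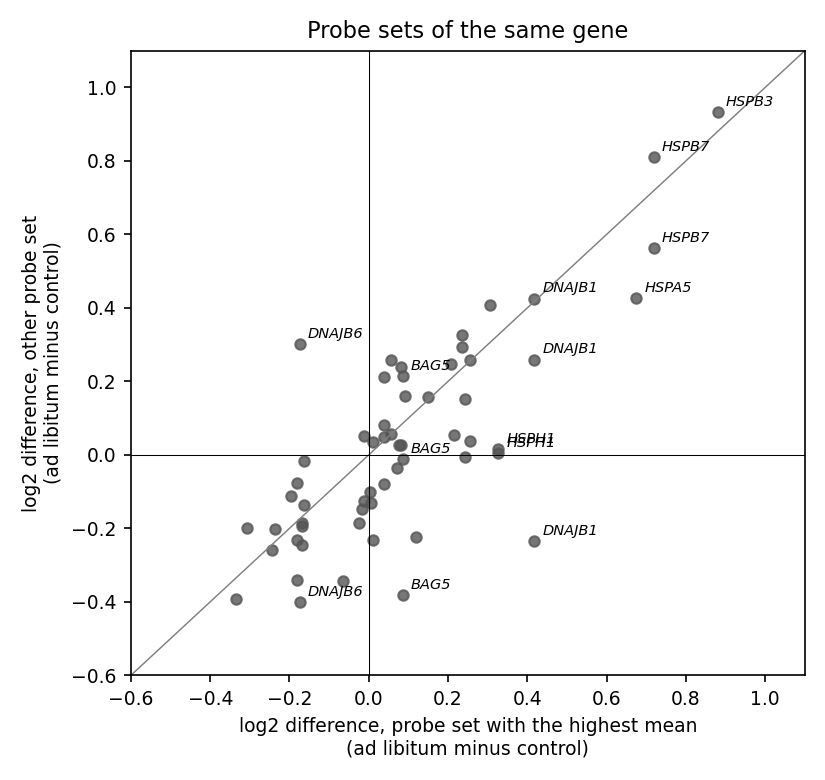
Log2 difference (ad libitum minus control) of the chosen probe set of a chaperone gene (horizontal axis) against each of its other tested probe sets (vertical axis), 58 points, with the line of equality. The points of HSPB3, HSPB7 and HSPA5 lie on the positive side for both, and DNAJB1, DNAJB6 and BAG5 have points on both sides of 0.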

How the data were processed

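Muscle RNA of 9 dogs was measured on 1 Affymetrix canine array each, after Trizol extraction and biotin labelling of cRNA, per the labels' protocols. The deposited log2 values are the authors' GCRMA values, as the submitters' processing notes name the tool without a version. The log base was taken from the range of the values, 0.652 to 16.6. GCRMA equalises the arrays' distributions, which can hide a shift common to most genes, and compresses low values. No depth exists for arrays: their number limits the precision.

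Of 43035 probe sets, 111 controls were left out and 18394 above 4 on at least 4 arrays were tested with limma 3.58.1 in R 4.3.3 (lmFit, eBayes, two-sided, no covariate), with Benjamini-Hochberg adjustment over all of them. The fit had 7 residual and 2.32 prior degrees of freedom. Groups and animal numbers come from the titles. The labels name no batch. Symbols come from the 2016 platform annotation, in which 29254 probe sets other than controls had 1 symbol, and 439 of all probe sets had several and 13332 none. Entrez IDs of 66 of the 68 genes were found in the table of the dog assembly UU_Cfam_GSD_1.0, and 0 symbols changed.

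The chaperone genes and the other lists were chosen with earlier results of these data known. Genes were named by 3 rules: the 8 higher and 8 lower with the lowest p, a panel of which HSPA1A and DNAJA1 are not analysed here, and in each family the highest mean and largest difference. From other lists up to 2 genes with the lowest p were named. ATF3 and MYC were named besides, after their values were seen. Alternatives were other filters and floors, cyclic loess, median centring, a trended robust variance, the mean of a gene's probe sets, and leaving out each dog. Planned comparisons of promoter and protein sequences were not run. The limma step was tested on simulated data (3 runs of 18394 probe sets, 200 changed): it called 51.7% of those changed by 1, 87.1% at 2 and 95.7% at 3, and 28 of 54582 unchanged ones. Noise was drawn independently for each probe set and array. Changes under 1, the size of every chaperone difference in the main fit, were not simulated, so the rates do not cover them.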

Additional observations from a re-analysis of the deposited data

Results flagged for a closer look

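In 7 of 60 groups of values, 2 for each of the 30 named chaperone genes, 1 dog stood apart from the others of its group by Dixon's test at the 95% level. Chance alone marks about 1 group in 20. Among ad libitum dogs, DNAJB1 was 6.96 in dog 7, against 7.92 to 8.19 in the others, and DNAJC25 was 6.08 in dog 2, against 6.88 to 6.92. Among control dogs, HSPB7 was 13.21 in dog 3, against 12.17 to 12.30, and its difference without that dog was 0.96. DNAJB5 was 10.26 in control dog 3, against 9.37 to 9.44. HSP90AB1 was 12.90 in control dog 4, against 12.53 to 12.55, and HSPA9 was 9.73 in the same dog, against 8.81 to 8.88. HSPB2 was 10.34 in control dog 1, against 10.73 to 10.79.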

How the results depend on the processing

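The limits are the 9 arrays, the log base taken from the values, 1 probe set per gene, and no gene past the adjusted threshold. The lowest adjusted p of a named gene under any alternative was 0.235, for HSPB3. Of 480 values of the 30 named genes under 16 alternatives, 456 kept their direction and their side of the threshold and 24 changed sign, and 20 of the genes never changed sign. The count of probe sets past an adjusted p of 0.05 was 0, but 1 with values below 4 raised to 4, and 0 to 1 leaving out 1 dog (1 without ad libitum dog 8). Chaperone genes with an unadjusted p under 0.05 numbered 3, but 5 with no filter, where HSPB8 and DNAJC30, below 4 on every array, were added, 2 with the probe sets of a gene averaged, where HSPB7 had a p of 0.055, and 4 with the trended robust variance, where HSPB8 was added. Leaving out 1 dog gave 2 to 5. They were 2 without control dog 3, where HSPA5 had a p of 0.057, and 5 without ad libitum dog 7, where BAG4 and DNAJA4 were added. The median difference of the tested chaperone genes lay between -0.031, leaving out ad libitum dog 7, and 0.088, leaving out dog 2. Genes whose groups did not overlap numbered 1, but 0 where all probe sets of a gene were averaged, 2 with arrays centred on their median, and 1 to 3 leaving out 1 dog (3 without control dog 3, 2 without ad libitum dog 7 or 8). With this averaging, DNAJC19 differed by -0.051, HSPB1 by -0.062 and HSPD1 by -0.062, and with arrays centred on their median DNAJB5 differed by 0.0039. Leaving out 1 dog moved DNAJB4 between -0.032 and 0.42, DNAJB5 between -0.12 and 0.20, HSP90AA1 between -0.24 and 0.062, and HSP90AB1 between -0.066 and 0.14. It moved HSPA9 between -0.25 and 0.061, HSPB1 between -0.046 and 0.049, HSPB6 between -0.041 and 0.15, HSPD1 between -0.098 and 0.18, and HSPE1 between -0.12 and 0.12. The causes of these changes were not tested. No paired analysis was possible because no animal number occurs in both groups.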
